A study of Rattus norvegicus with 18 samples.

Results

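Expression of 9 genes of bile acid synthesis and its control was examined in liver from 6 control, 6 NASH and 6 NASH-CH rats, with 1 RNA-Seq library per rat. The genes were fixed by symbol among the 32623 genes listed for every rat, and all 9 were found and passed the filter on low counts, which 12904 genes passed. They were the hydroxylases Cyp7a1 (ENSRNOG00000009488), Cyp8b1 (ENSRNOG00000019481), Cyp27a1 (ENSRNOG00000017188) and Cyp7b1 (ENSRNOG00000009730), the ring-modifying enzymes Hsd3b7 (ENSRNOG00000019080) and Akr1d1 (ENSRNOG00000013004), the conjugating enzyme Baat (ENSRNOG00000007395), and the nuclear receptors Nr1h4 (ENSRNOG00000007197) and Nr0b2 (ENSRNOG00000007229). All animals were male Wistar rats. NASH rats inhaled CCl4 and drank phenobarbital for 6 weeks and were then fed a diet rich in fat and cholesterol (HFCD) over 4 weeks. NASH-CH rats, the protocol for NASH with cirrhosis, inhaled CCl4 and drank phenobarbital for 8 weeks, and then received the HFCD together with both agents for 16 weeks. Control rats received standard chow and normal water for 12 weeks. This schedule is that of the study's methods; the series' design text instead gives CCl4 and the diet together for all 10 weeks in NASH and all 24 weeks in NASH-CH rats, so whether NASH rats received CCl4 until the end is not settled here. The protocols therefore ended at 12 weeks in control, 10 weeks in NASH and 24 weeks in NASH-CH rats, and diet, CCl4, phenobarbital and duration cannot be told apart in these comparisons. Rats were housed 2 per cage, and which rats shared a cage is not given in the sources used here.

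Bile acids are made from cholesterol in hepatocytes. In the classical pathway Cyp7a1 adds the hydroxyl group that commits cholesterol to bile acid synthesis and sets its rate, Hsd3b7 and Akr1d1 then change the sterol ring, and Cyp8b1 adds the hydroxyl group that distinguishes cholic acid from muricholic and chenodeoxycholic acid. In the alternative pathway Cyp27a1 acts first on the side chain and Cyp7b1 acts on the resulting oxysterols. Baat joins the finished acid to taurine or glycine. Bile acids feed back through Nr1h4, which encodes the bile acid receptor FXR, and through its target Nr0b2, which encodes the repressor SHP. Expression of Cyp7a1 and Cyp8b1 follows feeding and the circadian clock in rodents.

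RefSeq promoters of assembly GRCr8 were matched for 5 of the 9 genes. The 250 bases before the annotated start are printed 5′ to 3′ on the gene's strand for Cyp8b1, whose log2 fold change between NASH-CH and NASH was the largest of the 9 in size, and for Baat and Hsd3b7, whose levels were lower in NASH-CH rats. In each window 4 motifs were searched on both strands, and capitals mark matches. They were CAAGGNCA for the liver receptor homolog encoded by Nr5a2, CAANGTCCA for the receptor encoded by Hnf4a, the inverted repeat for FXR (AGGTCA, any 1 base, then TGACCT), and TTANGTAA, the D-box read by the clock output factor encoded by Dbp. The window of Cyp8b1 is chr8:130457593-130457842 on the minus strand, that of Baat is chr5:68656138-68656387 on the minus strand, and that of Hsd3b7 is chr1:191842438-191842687 on the plus strand.
Cyp8b1: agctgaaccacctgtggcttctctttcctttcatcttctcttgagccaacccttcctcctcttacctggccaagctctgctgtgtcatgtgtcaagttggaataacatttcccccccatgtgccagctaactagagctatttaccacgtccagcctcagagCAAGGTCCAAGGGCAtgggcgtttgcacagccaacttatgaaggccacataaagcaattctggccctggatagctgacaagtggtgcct
Baat: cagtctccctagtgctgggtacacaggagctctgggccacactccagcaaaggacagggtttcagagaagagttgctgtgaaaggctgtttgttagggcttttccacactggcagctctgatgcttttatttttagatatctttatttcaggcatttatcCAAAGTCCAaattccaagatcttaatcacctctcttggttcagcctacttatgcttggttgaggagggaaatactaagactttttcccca
Hsd3b7: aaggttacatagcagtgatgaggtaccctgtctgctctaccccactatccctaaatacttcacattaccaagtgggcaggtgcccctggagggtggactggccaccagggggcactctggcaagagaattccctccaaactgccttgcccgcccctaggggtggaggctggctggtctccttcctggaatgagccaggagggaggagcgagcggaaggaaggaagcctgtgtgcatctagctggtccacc
In the Cyp8b1 window a match to the Hnf4a motif, from base −89 to −81 before the start, overlapped a match to the Nr5a2 motif, from −82 to −75. Baat held a match to the Hnf4a motif from −90 to −82. Hsd3b7 held none of the 4 motifs. Of the other windows, that of Nr0b2 (chr5:151062910-151063159, plus strand) held the Nr5a2 motif from −199 to −192 and that of Cyp27a1 (chr9:83713282-83713531, plus strand) held it on the opposite strand from −236 to −229. Across 33469 rat promoter windows of this length, 5.58% held the Nr5a2 motif, 0.807% the Hnf4a motif, 0.0269% the FXR motif and 2.04% the D-box. A match is a description of these letters and not a binding site.

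Levels are given as CPM (the count of a gene per total counts, on the scale of 1e+06) after TMM scaling, and differences as log2 fold changes with standard error (SE) from limma-voom, with p-values adjusted by the Benjamini-Hochberg method over the 12904 genes tested and a threshold of 0.05. Total counts were 19498516 to 27174006 in control, 20827733 to 29491895 in NASH and 44680345 to 60117806 in NASH-CH rats, so depth did not overlap between NASH-CH and the other groups. Every count of the 9 genes was at least 65. Liver tissue is a mixture, and fewer cells of a type and less RNA per cell cannot be told apart. Both disease groups were compared with the same control rats.

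**Figure D1:**
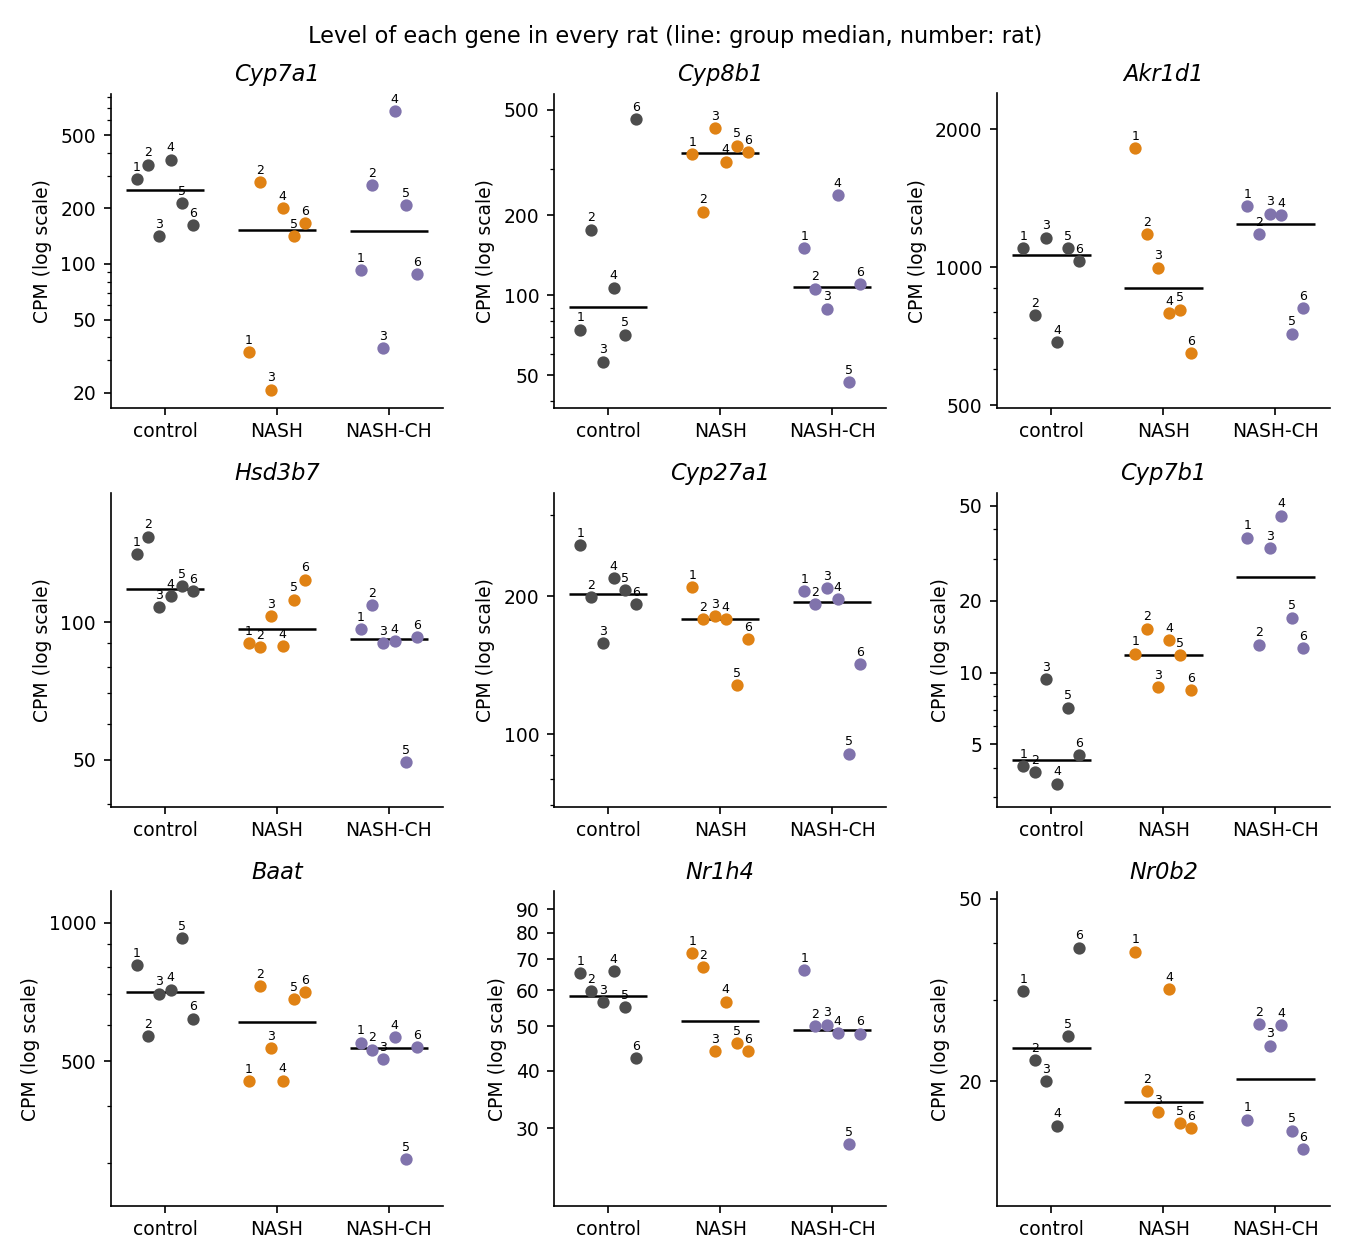
CPM (log scale, with a separate range for each gene) of the 9 genes in every rat of the control, NASH and NASH-CH groups; points are rats, numbers are rat numbers and lines are group medians. Cyp7b1 was higher in all 6 NASH-CH rats than in any control rat, Baat was lower in all 6, and Cyp8b1 was at 207 CPM or more in all 6 NASH rats.

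In NASH-CH rats, 3 of the 9 genes passed the test against control. Cyp7b1 rose 4.70-fold, while Hsd3b7 fell by 30.7% and Baat by 31.4%. Of all genes tested, 17% passed in this comparison, 8.38% higher and 8.6% lower, and 31.7% had an unadjusted p under 0.05, as did the same 3 of the 9. In NASH rats none of the 9 genes passed by limma-voom against a background of 3.12% (1.58% higher and 1.54% lower). By limma-voom 3 had an unadjusted p under 0.05, where 21.5% of all genes did. Of the 9 genes edgeR called 0 and DESeq2 1, Cyp7b1, where they called 652 and 1228 of the 12904 genes. Between NASH-CH and NASH none passed by limma-voom against a background of 4.2% (1.81% higher and 2.39% lower). By limma-voom 2 had an unadjusted p under 0.05, where 17.5% of all genes did. Of the 9 genes DESeq2 called 2, Cyp7b1 and Cyp8b1, and edgeR 1, Cyp7b1, where they called 949 and 617 of the 12904 genes. The median log2 fold change of the 9 genes was −0.19 in NASH and −0.29 in NASH-CH against control, and that of all genes was 0.01 in both. Of the genes called against control, 50.6% in NASH and 49.4% in NASH-CH were higher; under library size scaling, which moved the median gene by 0.23 and 0.27, 90.8% and 85% were.

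**Figure D2:**
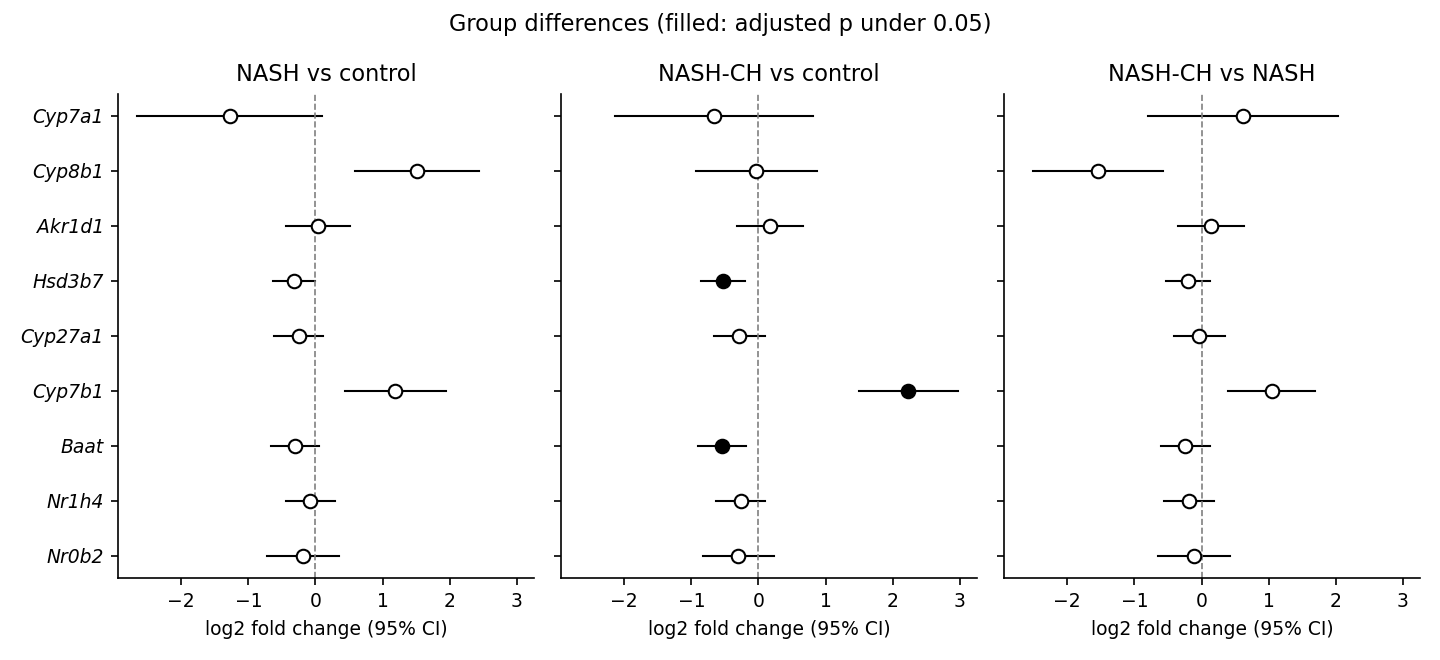
Log2 fold change (points) with its 95% confidence interval (lines) of the 9 genes in the 3 comparisons between groups; filled points have an adjusted p under 0.05. Cyp7b1, Hsd3b7 and Baat are filled in NASH-CH against control and no point is filled in the other comparisons.

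Cyp7a1, the rate-limiting hydroxylase of the classical pathway, varied widely within each disease group. It ranged from 141 to 368 CPM in control rats with a median of 251. In NASH rats it ranged from 20.8 to 277 CPM with a median of 154, and in NASH-CH rats from 35 to 672 CPM with a median of 150.1. NASH rats 1 and 3, at 33.2 and 20.8 CPM, lay below every control rat, as did NASH-CH rats 1, 3 and 6, whereas NASH-CH rat 4 lay above every other rat of the study. The highest rat was 2.62 times the lowest in control, 13.3 times in NASH and 19.2 times in NASH-CH. The log2 fold change against control was −1.28 (SE 0.66, adjusted p 0.265) in NASH and −0.66 (SE 0.70, adjusted p 0.546) in NASH-CH. The intervals of −2.66 to 0.10 and −2.13 to 0.81 included no difference as well as a value below −2. Leaving out single rats moved the NASH value between −1.59 and −0.83, with the smallest difference without NASH rat 3. It moved the NASH-CH value between −1.11, without NASH-CH rat 4, and −0.25, without NASH-CH rat 3, and that of NASH-CH against NASH between 0.17 and 1.03.

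Cyp8b1, the hydroxylase that directs synthesis to cholic acid, had its highest median in NASH rats. Control rats ranged from 56.3 to 461 CPM with a median of 90.8. In the NASH group the lowest value was 207 CPM, the median 343 and the highest 426. NASH-CH rats ranged from 47.2 to 239 CPM with a median of 108. All 6 NASH rats were above 5 of the 6 control rats, and control rat 6 was above all 6 NASH rats; 5 of 6 NASH-CH rats were below every NASH rat. The NASH difference from control was 1.51 on the log2 scale (SE 0.44, unadjusted p 0.00287, adjusted p 0.0642), and that of NASH-CH from NASH was −1.54 (SE 0.46, unadjusted p 0.00343, adjusted p 0.0661). NASH-CH and control differed by −0.03 (SE 0.43, adjusted p 0.967), with an interval of −0.94 to 0.87.

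Single rats changed whether the Cyp8b1 differences passed. Without control rat 6 the log2 fold change of NASH against control was 1.89 (adjusted p 0.00465) and that of NASH-CH against NASH stayed at −1.54 (adjusted p 0.0138). Without NASH-CH rat 5 the NASH difference from control also passed (adjusted p 0.0421), and without NASH-CH rat 4 so did that between NASH-CH and NASH (−1.77, adjusted p 0.0322). Over 28 settings the adjusted p ranged from 0.00465 to 0.15 for NASH against control and passed in 4 of them. It ranged from 0.0138 to 0.139 for NASH-CH against NASH and passed in 8.

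Akr1d1, the reductase that gives the sterol ring its bent shape, did not pass in any comparison. Control rats ranged from 686 to 1162 CPM with a median of 1062. The NASH range was 650.1 to 1820.5 CPM around a median of 904, and the NASH-CH range 717 to 1361 CPM around a median of 1241. Log2 fold changes against control were 0.04 (interval −0.44 to 0.51) in NASH and 0.18 (interval −0.31 to 0.66) in NASH-CH.

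Hsd3b7, the oxidoreductase that acts on the sterol ring after Cyp7a1, fell in NASH-CH rats. Control rats ranged from 108 to 154 CPM with a median of 119. NASH-CH rats ranged from 49.3 to 109 CPM with a median of 91.9, and all but NASH-CH rat 2 were below every control rat. The log2 fold change was −0.53 (SE 0.16, adjusted p 0.0264), or a level 30.7% lower. NASH rats, at 88.3 to 124 CPM with a median of 96.3, had 4 of 6 rats below every control rat, and the difference from control was −0.32 on the log2 scale (SE 0.15, adjusted p 0.217). Leaving out control rat 1 took the NASH-CH difference to −0.50 (adjusted p 0.0557), and scaling by library size alone took it to −0.28 (adjusted p 0.17). It also did not pass with sample quality weights (−0.37, adjusted p 0.0506) or with only the 2 groups compared (−0.53, adjusted p 0.0561).

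Cyp27a1, the mitochondrial hydroxylase of the alternative pathway, ranged from 158 to 258 CPM in control rats (median 203), from 128 to 209 in NASH rats (median 178) and from 90.7 to 208 in NASH-CH rats (median 194). The groups overlapped, and NASH-CH rat 5 was the lowest rat of the study. Its log2 fold changes against control were −0.25 (SE 0.17, adjusted p 0.425) in NASH and −0.29 (SE 0.18, adjusted p 0.292) in NASH-CH.

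Cyp7b1, the oxysterol hydroxylase of the alternative pathway, rose in NASH-CH rats. Control rats ranged from 3.43 to 9.39 CPM with a median of 4.28. NASH rats ranged from 8.47 to 15.3 CPM with a median of 11.9, and NASH-CH rats from 12.7 to 45.5 CPM with a median of 25.2. No NASH-CH rat overlapped the control rats, a pattern seen in the same direction for 3.64% of all genes, and 4 of 6 NASH rats were above every control rat. The NASH-CH rise was 2.23 on the log2 scale (SE 0.35, adjusted p 0.000305), or 4.70-fold with a 95% confidence interval of 2.82 to 7.83. It passed in 28 of 28 settings, with log2 fold changes of 2.03 to 2.47. In NASH the difference was 1.19 (SE 0.36, unadjusted p 0.00376, adjusted p 0.0717) and between NASH-CH and NASH 1.04 (SE 0.31, unadjusted p 0.00305, adjusted p 0.0621). The NASH difference passed without NASH-CH rat 6 (1.2, adjusted p 0.0488), and that between the disease groups passed without NASH-CH rat 2 (1.21, adjusted p 0.0334) or NASH-CH rat 6 (1.22, adjusted p 0.025). Both also passed by DESeq2 (adjusted p 0.013 and 0.00544), and the difference between the disease groups by edgeR (adjusted p 0.0369). Over 28 settings the NASH difference passed in 5 and that between the disease groups in 7.

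Baat, which conjugates bile acids, fell in NASH-CH rats. Control rats ranged from 566 to 926 CPM with a median of 708, and NASH-CH rats from 306 to 564 CPM with a median of 533. All 6 NASH-CH rats were below every control rat, a pattern seen in the same direction for 3.46% of all genes. The log2 fold change was −0.54 (SE 0.17, adjusted p 0.0376), or a level 31.4% lower. NASH rats ranged from 452 to 728 CPM with a median of 608, and differed from control by −0.31 on the log2 scale (SE 0.17, adjusted p 0.305). The NASH-CH call did not pass without control rats 1, 3, 4 or 5 or NASH-CH rats 3 or 5, with log2 fold changes of −0.51, −0.56, −0.55, −0.48, −0.55 and −0.42 and adjusted p of 0.0774, 0.0572, 0.062, 0.0857, 0.0537 and 0.0633. Scaling by library size alone took it to −0.29 (adjusted p 0.128). Sample quality weights took it to −0.45 (adjusted p 0.0507). The summed level of 10 hepatocyte markers ranged from 141547 to 202656 CPM in control rats and from 98920 to 159210 CPM in NASH-CH rats. Most of that sum was albumin (Alb), with means of 105874 and 71037 CPM. Of the 10 markers, Alb, Apoa1 and Ttr fell in NASH-CH, by 0.61, 0.66 and 0.76 on the log2 scale (adjusted p 0.0304, 0.0107 and 0.0174), 7 did not pass, and the median log2 fold change of the 10 was 0.02. The part of these levels in the lower Baat and Hsd3b7 levels was not tested.

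The receptor genes did not pass in any comparison. Nr1h4 ranged from 42.6 to 65.9 CPM in control, 44.1 to 72.2 CPM in NASH and 27.7 to 66.3 CPM in NASH-CH rats, with medians of 58.1, 51.3 and 49.2. Nr0b2, its target, ranged from 16 to 39.1 CPM in control, 15.8 to 38.3 CPM in NASH and 14.2 to 26.6 CPM in NASH-CH rats, with medians of 23.7, 18.1 and 20.2. The groups overlapped for both genes. Their log2 fold changes against control were −0.08 and −0.19 in NASH and −0.27 and −0.30 in NASH-CH, with intervals of −0.43 to 0.28, −0.72 to 0.34, −0.64 to 0.10 and −0.83 to 0.24. Under library size scaling both NASH values were above 0 (0.15 and 0.03).

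Ratios of 2 genes within a rat do not depend on the scaling. On the log2 scale, the ratio of Cyp8b1 to Cyp7a1 counts had a median of −1.45 (−1.96 to 1.5) in control, 1.22 (−0.42 to 4.35) in NASH and −0.51 (−2.14 to 1.35) in NASH-CH rats. Since gene length was not taken into account, such a ratio is compared between rats and its sign has no meaning of its own. All 6 NASH rats lay above the control rats other than rat 6, which lay above 4 NASH rats. The Cyp7a1 to Cyp7b1 ratio had medians of 5.67 in control (3.91 to 6.75), 3.73 in NASH (1.26 to 4.29) and 3.21 in NASH-CH rats (0.07 to 4.34). For Nr0b2 to Nr1h4 the medians were −1.28, −1.43 and −0.99, and for Cyp7a1 to Cyp27a1 they were 0.10, 0.10 and −0.10. Ratios were described and not tested.

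**Figure D3:**
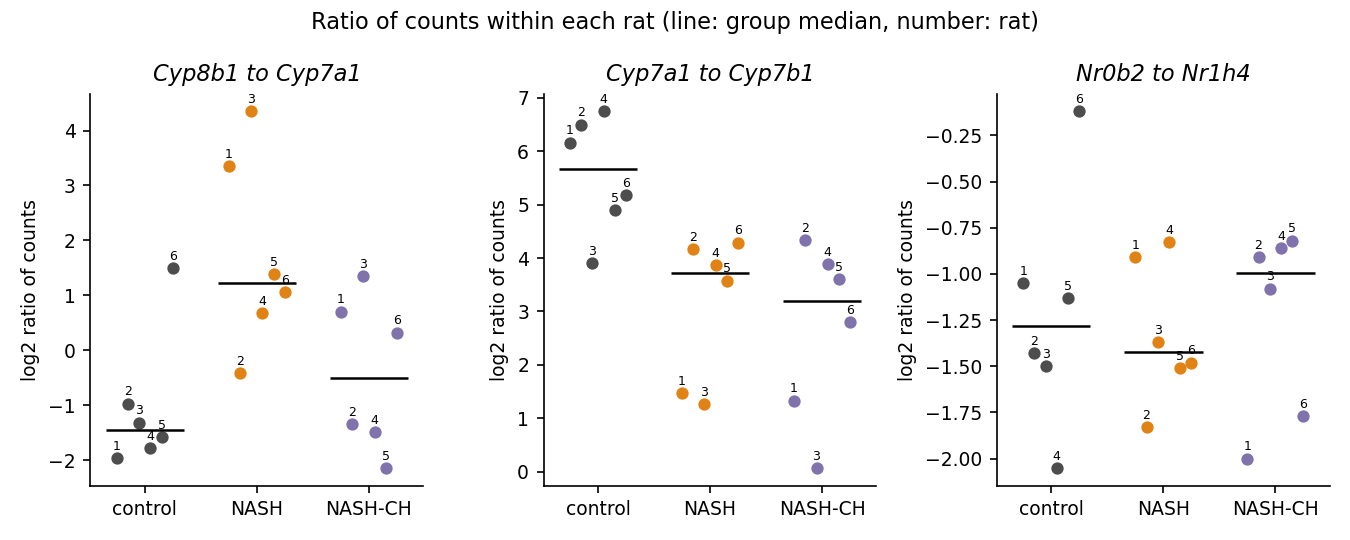
Log2 ratio of the counts of Cyp8b1 to Cyp7a1, Cyp7a1 to Cyp7b1 and Nr0b2 to Nr1h4 in every rat of the 3 groups; points are rats, numbers are rat numbers and lines are group medians. The Cyp8b1 to Cyp7a1 ratio is highest in NASH rats 3 and 1, at 4.35 and 3.35, the rats with the least Cyp7a1.

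Rats also differed in the clock genes Dbp and Arntl, which separated animals within each group. Dbp, a clock output factor that peaks opposite to Arntl, was 0.858 to 1.79 CPM in control rats 1, 3, 4 and 5, 7.71 CPM in control rat 2 and 29.0 CPM in control rat 6. Among NASH rats it was 31.9 to 57.7 CPM in rats 2, 5 and 6 and 1.51 to 8.18 CPM in rats 1, 3 and 4. In NASH-CH rats 2, 4 and 6 it was 44.2 to 58.5 CPM, and in rats 1, 3 and 5 it was 1.31 to 2.44 CPM. Arntl ran the other way, with 1.24 to 8.91 CPM in control rats 2 and 6, NASH rats 2, 5 and 6 and NASH-CH rats 2, 4 and 6 and 10.6 to 31.9 CPM in the others. Not every clock gene was split in this way. In NASH-CH rats 2 and 4 Nr1d1 was 21.5 and 20.2 CPM, close to the 13.9 to 20.1 CPM of rats 1, 3 and 5, and in rat 6 it was 47 CPM. Control rat 6, with the highest Cyp8b1 of its group, and NASH-CH rat 4, with the highest Cyp7a1 and Cyp8b1 of its group, were both on the high Dbp side. In the NASH group, rat 3, with the highest Cyp8b1 (426 CPM), had an intermediate Dbp of 8.18 CPM. Control rat 2, placed with the low Arntl rats, had 7.71 CPM of Dbp, so the side of these rats depends on the cut. NASH rat 2, with the highest Dbp of its group (57.7 CPM), had the lowest Cyp8b1 (207 CPM). The time of day at which livers were taken is not given in the sources used here.

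After subtraction of group means, log2 CPM of Dbp and Cyp8b1 had a Pearson r of 0.52 over 18 rats (within-group permutation p 0.0288, adjusted over 9 genes 0.26) and a Spearman rho of 0.45 (permutation p 0.0674, adjusted 0.333). Without the 2 rats farthest from the median of Dbp the r was 0.26. Leaving out the extremes of Dbp also narrows its range, so this cannot tell whether the relation rested on those rats. Within groups, Dbp and Cyp8b1 had an r of 0.95 among control, −0.32 among NASH and 0.53 among NASH-CH rats. For Cyp7a1 the r was 0.42 (permutation p 0.128, adjusted 0.314) and rho 0.34 (permutation p 0.225, adjusted 0.46), with an r of 0.42 without 2 rats and of −0.15, 0.43 and 0.61 within groups. None of the 9 relations passed. With the log ratio of Dbp to Arntl as a covariate, chosen after seeing the data, 0 genes passed in NASH, 3 in NASH-CH against control and 1, Cyp8b1 (−1.59, adjusted p 0.0302), between NASH-CH and NASH.

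**Figure D4:**
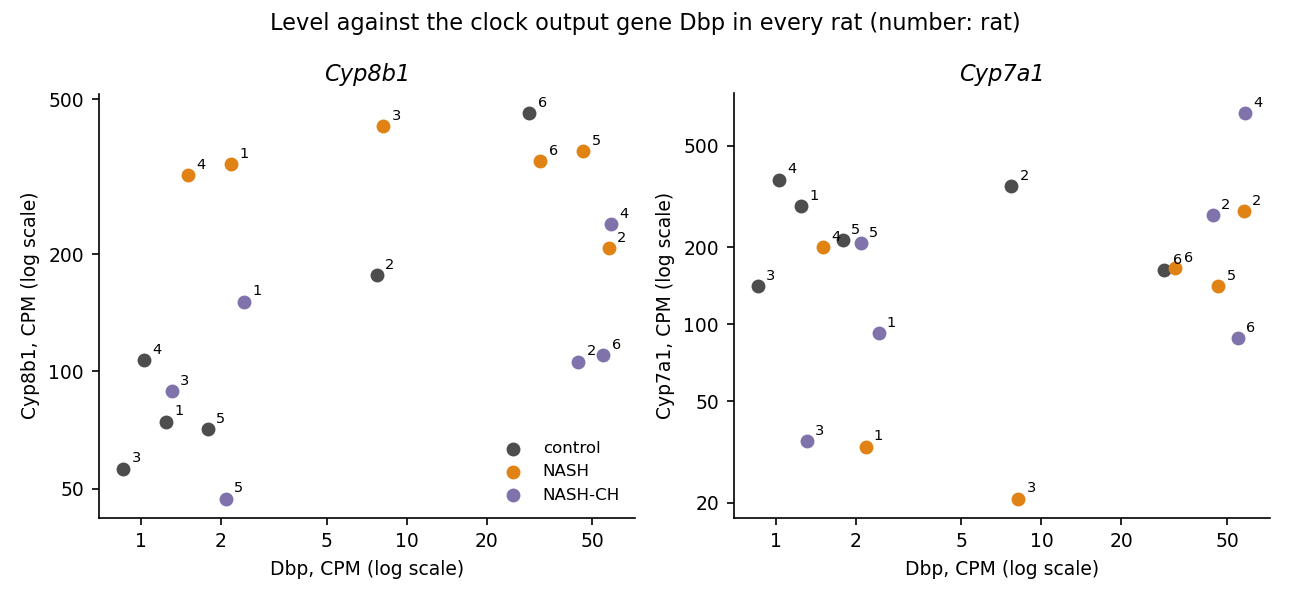
CPM of Cyp8b1 and of Cyp7a1 against CPM of Dbp in every rat (all axes log scale; colours are groups and numbers are rats). Dbp splits rats within each group, NASH rats lie at 207 CPM of Cyp8b1 or more at low and high Dbp, and the highest control rat for Cyp8b1, rat 6, has the highest Dbp of its group.

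Among the 36 pairs of the 9 genes, none passed by Pearson correlation of group-centred log2 CPM, with r from −0.34 to 0.75 and 7 at an unadjusted permutation p under 0.05, and 2 passed by Spearman correlation. For Cyp27a1 and Nr1h4 the r was 0.75 (permutation p 0.00298, adjusted 0.107), the rho 0.74 (permutation p 0.00071, adjusted 0.0164) and the r without the 2 farthest rats 0.52. For Cyp7b1 and Akr1d1 the r was 0.56 (permutation p 0.0156, adjusted 0.14), the rho 0.76 (permutation p 0.00091, adjusted 0.0164) and the r without 2 rats 0.52. Cyp7a1 and Cyp8b1, the hydroxylases of the classical pathway, had an r of 0.01 (permutation p 0.949, adjusted 0.952) and a rho of 0.06 (permutation p 0.813, adjusted 0.933). Within groups their r was −0.03 among control, −0.68 among NASH and 0.37 among NASH-CH rats.

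The genes around the pathway were described from lists. Of all 12904 genes tested, edgeR called 652 in NASH and 2449 in NASH-CH against control, and 617 between NASH-CH and NASH. DESeq2 called 1228, 2841 and 949 in the same order. Of 14 other enzymes of bile acid synthesis, 10 were tested and none passed in any of the 3 comparisons by limma-voom or edgeR and DESeq2 called 2 in NASH (Acot8 and Slc27a2, 1 in each direction), with 3, 1 and 2 at an unadjusted p under 0.05 in NASH against control, NASH-CH against control and NASH-CH against NASH. Slc27a5, the ligase that activates bile acids before Baat acts, had log2 fold changes of −0.17 (SE 0.20, adjusted p 0.67) in NASH and −0.06 (SE 0.21, adjusted p 0.87) in NASH-CH against control. The list's median log2 fold changes were −0.18 and −0.14.

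Of 21 other regulators, 19 were tested; 1 rose in NASH, and 1 rose and 1 fell in NASH-CH against control, where 3.12% and 17% of all genes passed. DESeq2 called 2 in NASH (Foxo1 and Ppara) and 5 in NASH-CH, 3 higher and 2 lower (Foxo1, Nr1h2, Nr1i3, Ppara and S1pr2). Of all 12904 genes, DESeq2 called 1228 and 2841 in these 2 comparisons. Ppara, the fatty acid receptor, ranged from 14.0 to 32.5 CPM in control, 28.2 to 48.3 in NASH and 19.3 to 49.6 in NASH-CH rats, and rose by 0.91 (SE 0.22, adjusted p 0.0308) and 0.88 (SE 0.23, adjusted p 0.0132). In NASH this call did not pass without control rats 1, 3, 4 or 5 or without any of NASH rats 1 to 5, with adjusted p of 0.0533 to 0.077. It also did not pass without a filter on low counts (0.92, adjusted p 0.0505) or with the Dbp to Arntl covariate (0.78, adjusted p 0.0824). Nr1i3, the xenobiotic receptor CAR through which phenobarbital acts, ranged from 6.08 to 18.4 CPM in control, 12.8 to 25.1 in NASH and 4.37 to 11 in NASH-CH rats. It fell in NASH-CH by 0.87 against control (SE 0.26, adjusted p 0.0289), a call lost without control rats 1, 5 or 6 or NASH-CH rats 3 or 5 (adjusted p 0.0502 to 0.0675). The call was also lost under library size scaling (−0.63, adjusted p 0.1) and with only the 2 groups compared (−0.87, adjusted p 0.0548). Against NASH, Nr1i3 fell by 1.51 (SE 0.25, adjusted p 0.000901), and every NASH-CH rat was below every NASH rat, as for 2.1% of all genes. Fgfr4 and Klb, the hepatocyte receptor and co-receptor for the intestinal hormone that represses Cyp7a1, and Nr5a2 and Hnf4a, activators of Cyp7a1 and Cyp8b1, had log2 fold changes between −0.13 and 0.21 against control in both disease groups, and none passed.

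Of 15 genes of bile acid transport, 12 were tested; none passed in NASH, where 1 had an unadjusted p under 0.05, edgeR called Abcc3 and DESeq2 called Abcc3 and Ephx1, and 2 rose and 1 fell in NASH-CH, where 17% of all genes passed, 8.38% higher and 8.6% lower. DESeq2 called 2 higher and 2 lower there, against 1439 higher and 1402 lower among all 12904 genes. Abcc3, a basolateral exporter, ranged from 1.26 to 2.18 CPM in control, 1.44 to 34.2 in NASH and 6.38 to 46.9 in NASH-CH rats, and rose in NASH-CH by 2.95 (SE 0.98, adjusted p 0.0455). That call passed in 15 of 28 settings; it was lost without any of the 6 control rats, without NASH rats 1 or 4 and without NASH-CH rats 5 or 6 (adjusted p 0.0532 to 0.087). Ephx1, the microsomal epoxide hydrolase, rose by 1.31 (SE 0.26, adjusted p 0.00263) and passed in 28 of 28 settings. Slco1a1, an uptake carrier, fell by 0.63 (SE 0.16, adjusted p 0.0131), from 223 to 302 CPM in control to 90.3 to 221 CPM in NASH-CH rats. Slc10a1, the main uptake carrier of conjugated bile acids, differed from control by −0.03 in NASH and −0.20 in NASH-CH, and Abcb11, the canalicular exporter, by −0.20 and 0.13; none of these passed. Between NASH-CH and NASH, 1 transport gene passed, the uptake carrier Slco1b2, which fell by 0.56 (SE 0.13, adjusted p 0.0145) from 567 to 777 CPM to 355 to 541 CPM.

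Of 18 clock genes, 17 were tested. Among those reported here, edgeR called Cry1 and Per1 in NASH-CH against control. DESeq2 called Cry1 and Per1 in NASH and Cry1, Per1, Per2 and Per3 in NASH-CH against control. Between NASH-CH and NASH no clock gene passed by limma-voom, edgeR or DESeq2. By limma-voom 1 passed in NASH-CH against control, where 17% of all genes passed. This was Per1, a core clock gene, which rose by 0.83 (SE 0.23, adjusted p 0.0194). That call was lost without control rat 5 (adjusted p 0.0513). It was also lost with the Dbp to Arntl log ratio as a covariate, chosen after seeing the data (0.59, adjusted p 0.0504). Dbp and Nr1d1 did not pass, with log2 fold changes of 1.90 (SE 1.51) and 2.30 (SE 0.74, adjusted p 0.0864) in NASH and 1.61 (SE 1.49) and 1.94 (SE 0.74, adjusted p 0.0793) in NASH-CH. Nr1d1 passed in both without control rat 2 (adjusted p 0.0414 and 0.0299) or control rat 6 (adjusted p 0.0103 and 0.00878). It also passed in both under library size scaling (adjusted p 0.0428 and 0.0323) and with sample quality weights (adjusted p 0.0121 and 0.0266). Of 7 genes for inflammatory and growth signals, all tested, none passed in any comparison by limma-voom or edgeR and DESeq2 called 1, Il6, between NASH-CH and NASH, with 0, 0 and 1 at an unadjusted p under 0.05.

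**Figure D5:**
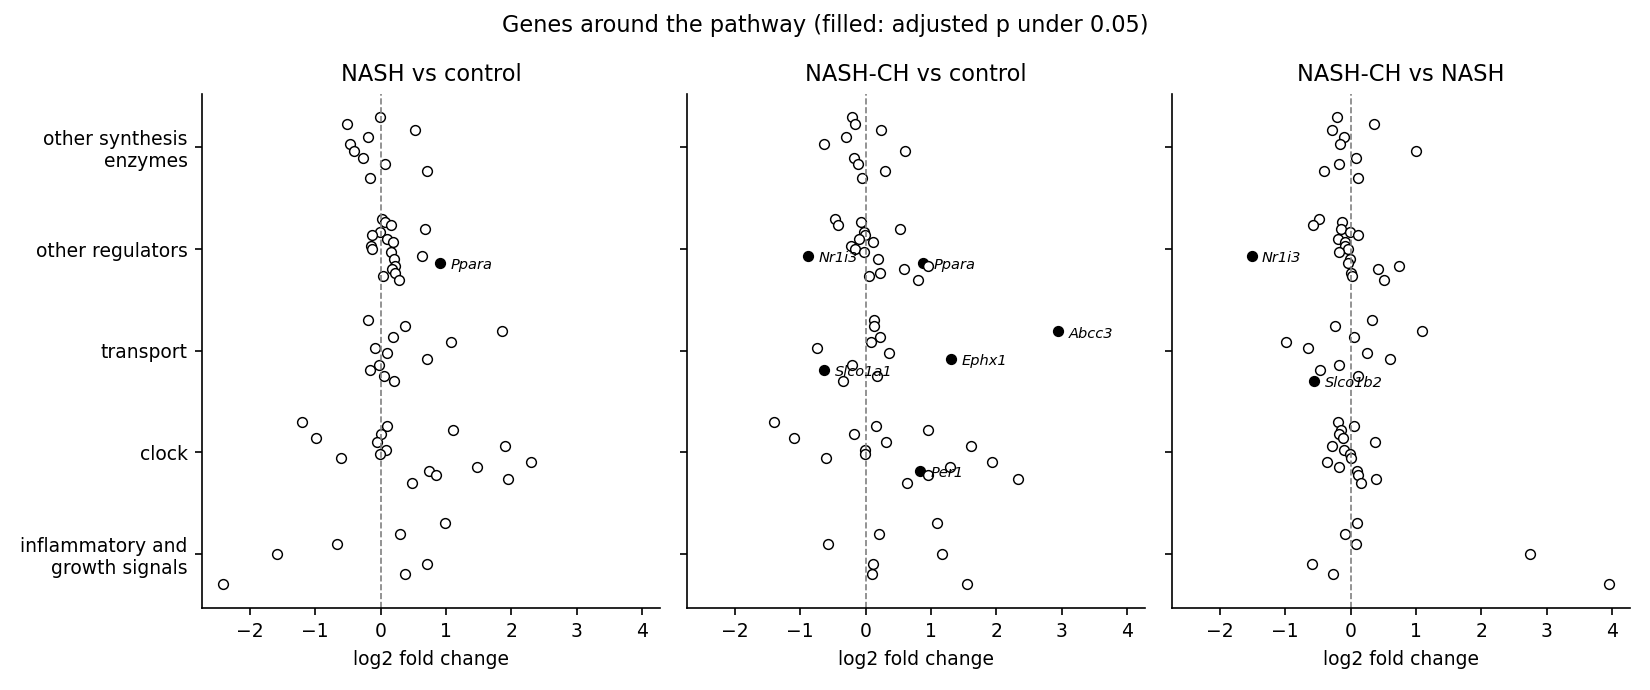
Log2 fold change of the genes reported here from 5 lists around the pathway in the 3 comparisons; points are genes and filled points, named, have an adjusted p under 0.05. Filled points are Ppara in NASH against control, 6 genes in NASH-CH against control, and Nr1i3 and Slco1b2 in NASH-CH against NASH.

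Markers of other cells of the liver were summed in each rat. Stellate cell and myofibroblast markers (7 analysed of 8 listed) ranged from 273 to 365 CPM in control, 221 to 299 in NASH and 272 to 411 in NASH-CH rats, and macrophage markers (6 of 6) from 198 to 375, 155 to 229 and 132 to 197 CPM. Most of the stellate sum was Col3a1, with means of 236, 197 and 278 CPM. Of the 7 stellate markers, 1 fell in NASH, and 2 rose and 1 fell in NASH-CH against control. Against NASH, 3 rose in NASH-CH. Of the 6 macrophage markers, 1 fell in NASH, 4 fell in NASH-CH against control and 0 passed in NASH-CH against NASH. Of all genes, 3.12%, 17% and 4.2% passed in these 3 comparisons. Endothelial markers (5 of 6) ranged from 184 to 260, 242 to 274 and 153 to 262 CPM, and cholangiocyte markers (6 of 6) from 8.43 to 10.5, 6.59 to 12.2 and 6.53 to 51.4 CPM. Of the 5 endothelial markers tested, 1 rose in NASH-CH against control. Of 4 cholangiocyte markers tested, 1 rose in NASH-CH against NASH. None of either list passed in the other comparisons. Lymphocyte markers summed to at most 3.92 CPM, neutrophil markers to at most 5.42 CPM and ileal markers to at most 2.37 CPM in any rat, and the ileal hormone gene Fgf19 was at 0 in every rat. Summed pericentral hepatocyte markers had medians of 1679.5, 2641 and 2558 CPM and periportal markers 8262, 8707 and 8107 CPM in control, NASH and NASH-CH rats. By group means, the largest part of the pericentral sum was Cyp2e1, a cytochrome P450 of xenobiotic metabolism, with means of 902, 2099.6 and 1626 CPM. Cyp2e1 rose on the log2 scale by 1.32 (adjusted p 0.0121) in the NASH group and by 0.98 (adjusted p 0.0181) in the NASH-CH group. Glul, the glutamine synthetase of the cells around the central vein, had means of 303, 215 and 138 CPM and fell in NASH-CH by 1.13 (adjusted p 0.000655). Of the 8 pericentral markers, 2 rose in NASH, and 1 rose and 1 fell in NASH-CH against control. Against NASH, 1 fell in NASH-CH. Of the 8 periportal markers, 1 fell in NASH, 1 rose and 1 fell in NASH-CH against control, and 0 passed in NASH-CH against NASH. The part of these levels in the differences above was not tested.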

How the data were processed

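RNA-Seq was performed on liver of 18 rats, 6 per group as the labels assign them; the number of rats limits the precision. According to the methods, adapters were trimmed and reads were mapped by STAR, in its 2-pass mode, to Rnor_6.0. RSEM then estimated gene counts on Ensembl release 95. The authors deposited these expected counts rat by rat, with no correction for depth or length; versions are not given in the sources used here. The submitters' notes also name Trim Galore and FastQC, the labels name a stranded mRNA kit, and labels and methods name different RNA extraction kits. All values of the 9 genes were whole, and expected counts were rounded for the tests. No column of per-sample values was left unused.

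Genes were kept by filterByExpr of edgeR 4.0.16, scaled by TMM and tested with limma 3.58.1 (voom, moderated statistics, R 4.3.3) in 1 fit of 18 rats, adjusted by Benjamini-Hochberg over 12904 genes. CPM were computed with TMM-scaled library sizes, and log2 CPM with a prior count of 2. Gene lengths were not used here, so levels were not compared between genes, and ratios of 2 genes were compared between rats only. Relations used 100000 permutations of values within groups, two-sided, in SciPy 1.17.1. Alternatives tried were DESeq2 1.42.0, the quasi-likelihood test of edgeR, other scalings, filters and weights, and leaving out each rat; the tests were tried on simulated data. The 9 genes and all lists were chosen with earlier results of these data known. Named from the lists were genes with an adjusted p under 0.05 in NASH or NASH-CH against control (at most 4 per list and comparison, by size), 9 genes always named (Slc27a5, Slc10a1, Abcb11, Fgfr4, Klb, Nr5a2, Hnf4a, Dbp and Nr1d1) and the 5 genes most like Cyp7a1 and Cyp8b1. Slco1b2, Arntl, genes called by edgeR or DESeq2 but not by limma-voom, and the markers Alb, Apoa1, Ttr, Cyp2e1, Glul and Col3a1 were named after their values were seen. Rats carry numbers in the labels that are not said to pair them. Nothing says more than that libraries came from separate rats, so p-values measure the spread between these rats. The result for 1 list gene is not reported here, and counts over the lists include it.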

Additional observations from a re-analysis of the deposited data

Results flagged for a closer look

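Of 27 sets of 6 rats, 1 for each of the 9 genes in each group, 4 had a rat far from the other 5 in CPM. A rate of about 1 in 20 sets by chance would hold only for independent sets of normally distributed levels. CPM were skewed for some genes, and the flags for Hsd3b7 and Baat came from the same rat. Whether 4 is more than chance would give therefore cannot be decided here. Cyp7a1 was at 672 CPM in NASH-CH rat 4, where the next rat was at 267 (log2 CPM 9.39 and 8.06, with the lowest rat at 5.13). Cyp8b1 was at 461 CPM in control rat 6, where the next rat was at 177 (log2 CPM 8.85 and 7.47, with the lowest rat at 5.82). Hsd3b7 and Baat were at 49.3 and 306 CPM in NASH-CH rat 5, where the next lowest rats were at 90.0 and 505. Between the disease groups, the differences from control of Nr1i3 and Slco1b2 differed by −1.51 and −0.56 on the log2 scale (NASH-CH minus NASH, limma-voom, adjusted p 0.000901 and 0.0145). Every NASH-CH rat was below every NASH rat for both genes, as for 2.1% of all genes. Both were flagged because they passed this comparison, so the lack of overlap is no separate result.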

How the results depend on the processing

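Of the 9 genes, none passed in NASH against control by limma-voom with TMM scaling, against 1 by DESeq2, 2 under library size scaling, 1 with only the 2 groups compared, 2 with sample quality weights and 0 to 1 when each rat was left out. In NASH-CH against control, 3 passed, against 1 under library size scaling, 1 with quality weights and 1 to 3 without single rats. In NASH-CH against NASH, none passed, against 1 by edgeR, 2 by DESeq2, 1 under library size scaling, 2 without a filter, 1 with only the 2 groups compared, 2 with quality weights, 1 with the Dbp to Arntl covariate, chosen after seeing the data, and 0 to 1 without single rats. Of the list genes, 2 passed in NASH, against 9 by DESeq2, 7 under library size scaling, 4 with only the 2 groups compared, 11 with quality weights, 0 with the covariate and 0 to 6 without single rats, the highest without control rat 6. In NASH-CH 6 passed, against 14 by DESeq2, 11 under library size scaling, 11 without a filter, 13 with quality weights and 3 to 10 without single rats, the lowest without control rat 5 and the highest without control rat 2. Same-numbered rats had mean correlations of 0.05, 0.07 and 0.02 in NASH against control, NASH-CH against control and NASH-CH against NASH, and not every pair was over 0.1. With the replicate number as a block, 0, 2 and 1 of the 9 genes passed, as did 1, 8 and 2 list genes; Baat was lost in NASH-CH against control and Cyp8b1 was gained in NASH-CH against NASH. Of the 36 relations 0 passed by Pearson correlation, and 0 to 2 without single rats (2 without control rat 3 and 1 without control rat 6). Signs turned for uncalled log2 fold changes. Library size scaling gave in NASH 0.03 for Nr0b2, 0.15 for Nr1h4, 0.06 for Slco1a1 and Slc27a5, 0.20 for Slc10a1, 0.03 for Abcb11 and 0.10 for Hnf4a. In NASH-CH it gave 0.17 for Cyp8b1, 0.19 for Slc27a5, 0.05 for Slc10a1, 0.18 for Fgfr4, 0.16 for Klb and 0.25 for Hnf4a, and in NASH-CH against NASH 0.01 for Nr5a2. Quality weights gave 0.04 for Slc10a1 in NASH, 0.34 for Cyp8b1, 0.12 for Slc27a5 and 0.08 for Hnf4a in NASH-CH, and 0.17 for Cyp27a1, 0.08 for Nr0b2, 0.13 for Ppara and 0.04 for Nr5a2 in NASH-CH against NASH. The covariate gave −0.03 for Fgfr4 and Klb in NASH and −0.24 for Dbp in NASH-CH. Hnf4a in NASH-CH was 0.01 by edgeR and 0.00 by DESeq2 and with at least 10 counts in every rat, and Dbp in NASH-CH against NASH was 0.14 by edgeR and DESeq2. Without single rats the ranges that crossed 0 were −0.14 to 0.15 for Akr1d1 and −0.08 to 0.07 for Slc10a1 in NASH, −0.27 to 0.34 for Cyp8b1, −0.18 to 0.02 for Fgfr4, −0.09 to 0.08 for Hnf4a and −0.17 to 0.15 for Slc27a5 in NASH-CH, and −0.12 to 0.12 for Cyp27a1, −0.20 to 0.05 for Nr0b2, −0.86 to 0.34 for Dbp, −0.07 to 0.07 for Nr5a2, −0.03 to 0.19 for Per1 and −0.13 to 0.14 for Ppara in NASH-CH against NASH. Over all genes, 403, 2192 and 542 passed in NASH against control, NASH-CH against control and NASH-CH against NASH, against 268, 5495 and 2649 without a filter, 1228, 2841 and 949 by DESeq2 and 865, 3270 and 367 under library size scaling. In NASH against control it was 1509 with quality weights, 652 by edgeR, 644 with only the 2 groups compared, 179 with the covariate, and 128 (without control rat 3) to 982 (without control rat 6) when single rats were left out, so the background of 3.12% moved with these choices. The cause was not tested.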

Other observations

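The genes whose level moved most like that of Cyp7a1 across the 18 rats, by Pearson r of group-centred log2 CPM among 5193 genes, were Tbcb (0.82), Dnajb11 (0.77), Mrps5 (0.76), Ccdc91 (0.75) and Slc17a9 (0.72). Tbcb encodes a tubulin folding cofactor, Dnajb11 a chaperone of the endoplasmic reticulum and Mrps5 a protein of the mitochondrial ribosome. For Cyp8b1 they were Cxcl12 (0.88), Dclre1a (0.87), Pde8a (0.87), Cpt1a (0.85) and Casp6 (0.85). Cxcl12 encodes a chemokine, Pde8a a cyclic nucleotide phosphodiesterase, Cpt1a the enzyme that carries fatty acids toward mitochondrial oxidation and Casp6 a caspase. These genes were picked for their likeness out of all genes, so their r is a description and carries no test. Within groups the r of Cxcl12 with Cyp8b1 stood at 0.92 for control, 0.95 for NASH and 0.93 for NASH-CH rats, and that of Cpt1a was 0.99, 0.32 and 0.73. The r of Tbcb with Cyp7a1 was 0.55, 0.80 and 0.98.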
